A study of Mus musculus with 12 samples.

Results

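Mouse liver was examined for 47 genes of 6 enzyme families: the aldehyde dehydrogenases (Aldh, 17 genes), the alcohol dehydrogenases (Adh, 4), the aldo-keto reductases of the Akr1 (12) and Akr7 (1) groups, the carboxylesterases (Ces, 9) and the flavin-containing monooxygenases (Fmo, 4). A gene was included when its symbol in the array annotation carried one of these family names and a probe set had no other symbol, with the bile acid enzyme Akr1d1 left out. Each gene was read from its probe set with the highest mean over the 12 arrays. These are 47 of the 12393 genes on the array. Of the 47, 40 were above the low-value limit (the 40th percentile of an array, exceeded on at least 3 arrays) and were among the 8469 genes tested.

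Liver RNA came from male C57BL6/J mice aged 8 weeks, with 4 groups of 3 mice and 1 Affymetrix array per mouse. Mice were wild-type, or carried a conditional-null allele of Txnrd1, the gene of cytosolic thioredoxin reductase, which Cre recombinase under the albumin promoter (albCre) disrupts in hepatocytes. The second genotype is called liver-null, as the labels have it. Mice of each genotype had received saline or acetaminophen (APAP) at 100 mg/kg into the peritoneum, and livers were collected 8 hours later. Other liver cells keep the gene. In bulk liver, fewer cells of a type and less RNA per cell cannot be told apart.

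Aldehyde dehydrogenases oxidise aldehydes to acids. Alcohol dehydrogenases interconvert alcohols and aldehydes, aldo-keto reductases reduce aldehydes and ketones, carboxylesterases cleave esters of lipids and drugs, and flavin-containing monooxygenases add oxygen to nitrogen and sulfur atoms of drugs and metabolites. Hepatocytes hold most of these enzymes in the liver. Several members, such as Aldh3a1 and Akr1b8, are known as targets of the transcription factor NRF2 or of the aryl hydrocarbon receptor, and loss of thioredoxin reductase in hepatocytes is known to activate NRF2.

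All values are log2 expression values. Array medians were 2.91 to 2.99 and the low-value limit was 2.42 to 2.48. No label explains a split among the arrays: 1 array of each group (numbers 10 and 14 of the wild-type saline and APAP mice, 16 and 17 of the liver-null ones) had an upper quartile of 5.49 to 5.58, and the other 8 had 5.73 to 5.85. The first are called the lower array set. In addition, 13 of the 40 tested members (32.5%) had their lowest value of each group on the same 4 arrays (8 and 12 of the wild-type saline and APAP mice, 4 and 2 of the liver-null ones), against 3.22% of all tested genes. The Txnrd1 probe set with signal read 9.43 to 9.81 in the wild-type arrays and 10.26 to 10.58 in those labelled liver-null, higher by 0.75 (SE 0.09, adjusted p = 0.000858, limma), while its other probe sets lay at 1.33 to 2.06. Txnrd1 therefore went against the label in direction, its probes may lie outside the deleted part, and genotype is given as labelled throughout. Hepatocyte markers averaged 12.73 to 12.94 per array, and cholangiocyte markers 2.09 to 2.22. Markers of stellate cells (wild-type 4.68 to 5.15, liver-null 4.31 to 4.75), erythroid cells (4.28 to 4.65 and 3.98 to 4.22) and pancreas (3.28 to 3.45 and 2.90 to 3.09) had a lower range of their mean level in the arrays labelled liver-null, overlapping for stellate cells and apart for the others. Of these lists, 1 of 9 tested stellate markers (Pdgfrb), 0 of 2 erythroid markers and 1 of 3 pancreas markers (Cela1) passed the test averaged over treatments, and their part in the results was not tested.

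Over both treatments, 6 of the 40 tested members differed between the genotypes, and 5 of the 6 were higher in livers labelled liver-null. The 6 were the carboxylesterases Ces1g and Ces2e, the monooxygenases Fmo1 and Fmo2 and the aldehyde reductase Akr1a1, all higher, and the alcohol dehydrogenase Adh4, lower. Changes ran from 1.24-fold for Akr1a1 to 2.38-fold for Ces1g. limma was fitted to the 12 arrays, and a call needs an adjusted p (Benjamini-Hochberg, over all 8469 genes) below 0.05. The same rule called 378 genes, or 4.46% of those tested, 2.28% higher and 2.18% lower. Of the members, 30 (75%) had a difference above 0, against 46.8% of all tested genes, and the median difference was 0.12, against -0.01. At an unadjusted p under 0.05, 16 members passed (14 higher, 2 lower), against 17% of all genes. With the array set as a covariate 10 members were called, 9 higher and 1 lower, against 10.4% of all genes (5.14% higher, 5.28% lower). All 6 liver-null arrays lay above all 6 wild-type arrays in 7 members, against 2.27% of all genes. All 6 lay below the wild-type arrays in 0 members, against 177 of the 8469 tested genes. Without the 4 arrays on which many members were lowest, a check added after seeing the data, 1 member (Fmo1) and 83 genes in all were called.

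**Figure D1:**
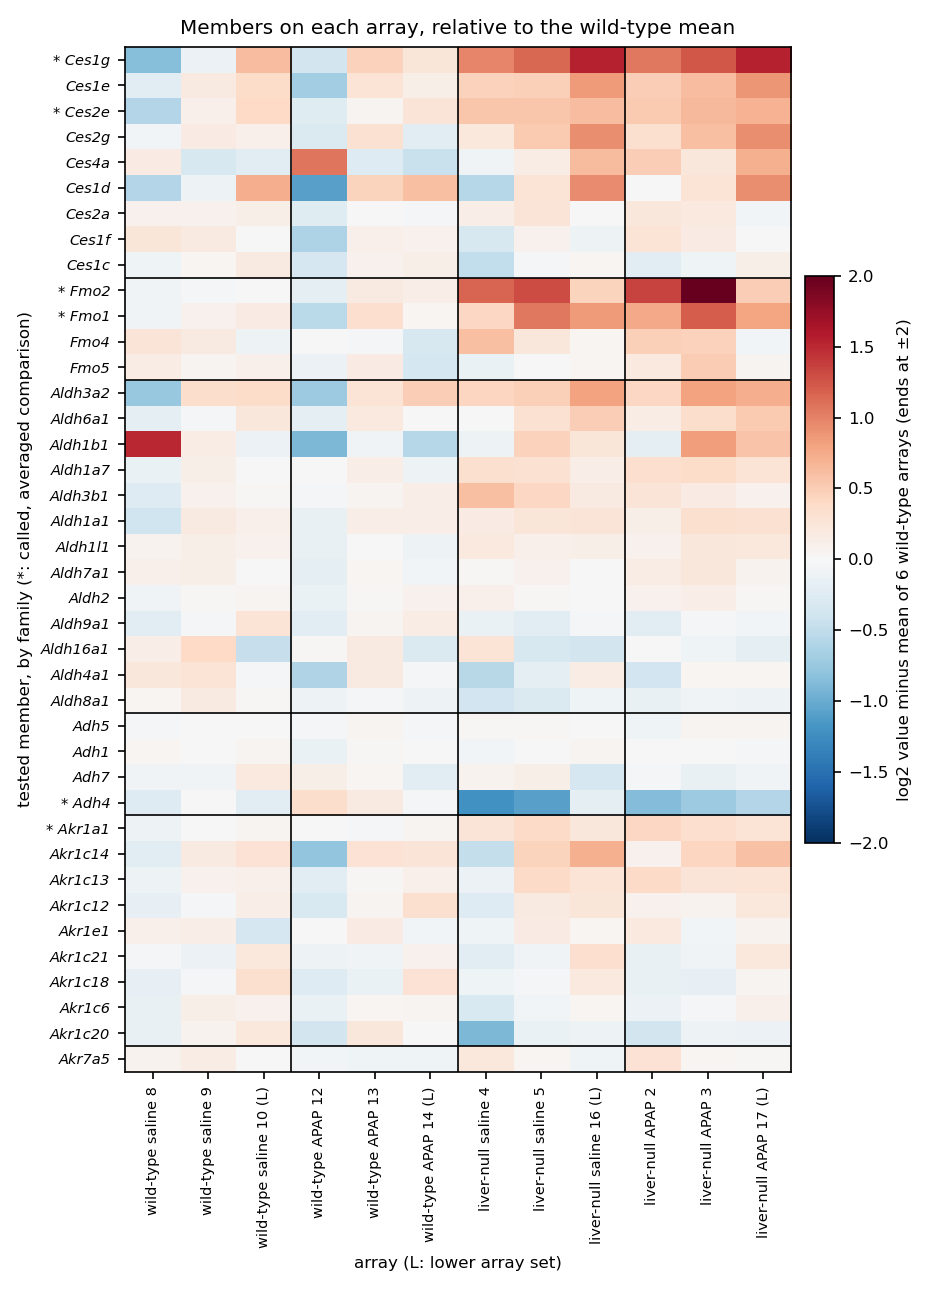
Log2 value of each of the 40 tested members (rows, by family) on each of the 12 arrays (columns), minus the mean of the 6 wild-type arrays of that member. Colours run from -2 to 2, an asterisk marks the 6 called members, and L marks the 4 arrays of the lower array set. Ces1g, Fmo1 and Fmo2 are above the wild-type mean on all 6 liver-null arrays.

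Among the carboxylesterases, 2 of 9 rose (Ces1g and Ces2e) and 0 fell, against 2.28% of all tested genes called higher and 2.18% lower. The family's median difference was 0.35, against -0.01 for all tested genes. Ces1g hydrolyses lipid esters in the liver. Its values were 8.75, 9.48 and 10.22 in wild-type saline livers, 9.24, 10.06 and 9.85 in wild-type APAP livers, 10.58, 10.76 and 11.14 in liver-null saline livers and 10.65, 10.85 and 11.14 in liver-null APAP livers. All 6 liver-null arrays lay above all 6 wild-type arrays, and the wild-type saline values were the more scattered (SD 0.73, n = 3). The difference averaged over treatments was 1.25 (SE 0.23, 95% interval 0.74 to 1.76, 2.38-fold, adjusted p = 0.0115, limma). It was 1.32 within the upper array set and 1.10 within the lower one. Without the arrays 8, 12, 4 and 2 together it was 1.07, with an adjusted p of 0.0591.

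Ces2e belongs to the second carboxylesterase group, which is known for cleaving acylglycerols and drug esters in liver and gut. It read 7.54, 8.24 and 8.53 in wild-type saline livers and 7.89, 8.19 and 8.39 in wild-type APAP livers. In livers labelled liver-null it read 8.68, 8.69 and 8.74 with saline and 8.66, 8.77 and 8.83 with APAP. The genotypes did not overlap, and the liver-null values spanned less than the wild-type values. The difference was 0.60 (SE 0.15, 1.51-fold, adjusted p = 0.048, limma), the closest of the 6 to the threshold. The call was lost when any array other than wild-type saline 10 or wild-type APAP 14 was left out, with differences of 0.46 to 0.63 and adjusted p-values of 0.0526 to 0.105.

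Ces1e, another liver esterase, also had all liver-null values (9.67 to 10.10) above all wild-type values (8.52 to 9.57), but its difference of 0.63 did not pass the test (adjusted p = 0.0676, limma). Ces2g read 6.27 to 6.85 in wild-type and 6.76 to 7.49 in liver-null livers, with 1 liver-null array inside the wild-type range. Its difference of 0.59 had an adjusted p of 0.0553, and it was called without wild-type APAP 13 (0.68, adjusted p = 0.0399) or liver-null saline 4 (0.67, adjusted p = 0.0364). Both genes were called with the array set in the model (adjusted p = 0.0198 for Ces1e and 0.0268 for Ces2g).

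The other carboxylesterases overlapped between genotypes. Ces1c, the esterase secreted into mouse plasma, read 12.30, 12.42 and 12.57 in wild-type saline, 12.06, 12.48 and 12.51 in wild-type APAP, 11.90, 12.35 and 12.42 in liver-null saline and 12.17, 12.31 and 12.51 in liver-null APAP livers. It differed by -0.11, Ces1f by 0.02 and Ces2a by 0.13. Ces4a read 3.22 to 4.75 in wild-type and up to 4.39 in liver-null livers, with overlap. Ces1d, the enzyme known as triacylglycerol hydrolase, had a within-group SD of 0.73, wider than that of 98.8% of tested genes. Its values were 10.74, 11.23 and 12.05 in wild-type saline, 10.24, 11.77 and 11.93 in wild-type APAP, 10.76, 11.60 and 12.28 in liver-null saline and 11.31, 11.61 and 12.26 in liver-null APAP livers. On the 4 arrays of the lower set it read 11.93 to 12.28, above all 8 others (10.24 to 11.77), a separation seen in 3 of 40 members (7.5%) and 18.1% of all tested genes. The genotype difference of Ces1d was 0.31 with an interval of -0.48 to 1.09.

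**Figure D2:**
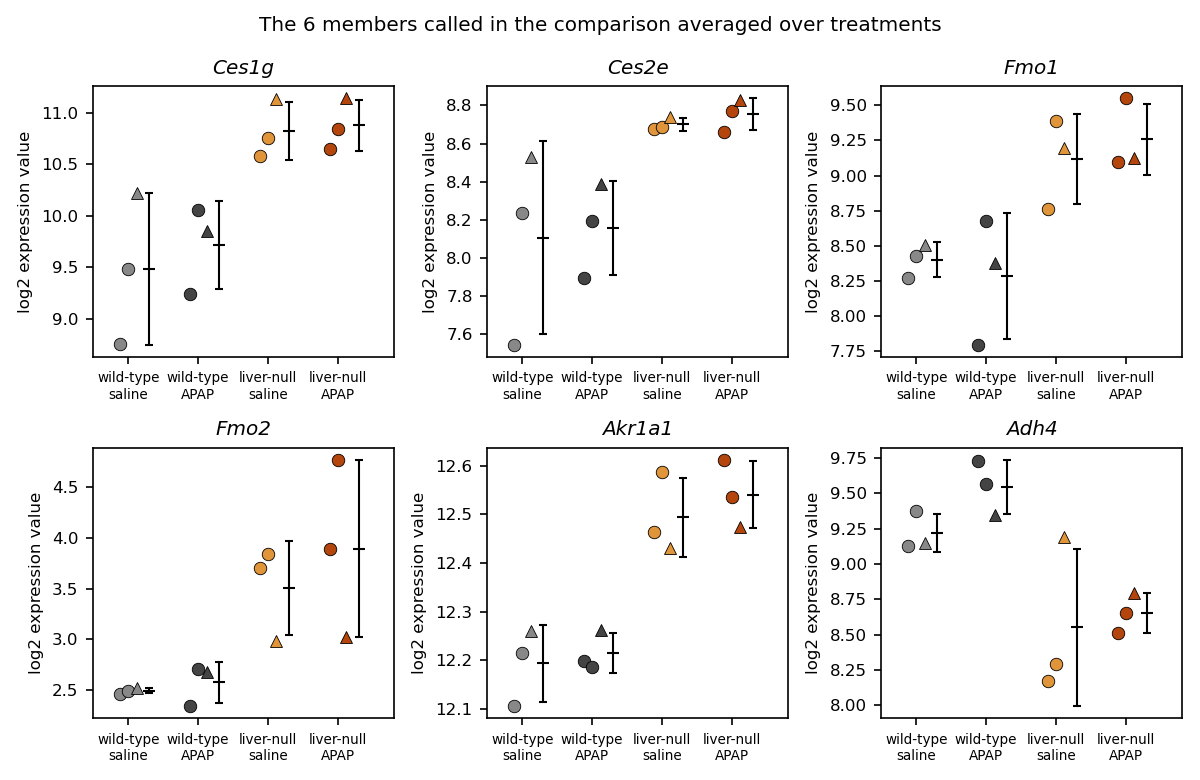
Log2 expression value (y axis) of the 6 members called in the averaged comparison, in the 4 groups (x axis). Circles are arrays of the upper set, triangles those of the lower set, and the bar beside each group is the mean with the SD of 3 arrays. For Ces1g, Ces2e, Fmo1, Fmo2 and Akr1a1 every liver-null point is above every wild-type point, and for Adh4 the liver-null saline point at 9.19 lies inside the wild-type range of 9.13 to 9.73.

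The flavin-containing monooxygenases gave 2 rises in 4 tested genes, against 2.28% of all tested genes called higher. The family median was 0.57, against -0.01 for all tested genes. Fmo1 is a broad drug-oxidising enzyme of mouse liver. It read 8.27, 8.43 and 8.51 in wild-type saline, 7.80, 8.68 and 8.38 in wild-type APAP, 8.76, 9.39 and 9.20 in liver-null saline and 9.10, 9.55 and 9.13 in liver-null APAP livers. The genotypes did not overlap, and the lowest liver-null value exceeded the highest wild-type value by a margin smaller than the spread within groups. The difference was 0.84 (SE 0.16, interval 0.49 to 1.20, 1.79-fold, adjusted p = 0.0139, limma). Restricting the fit to the 8 arrays of the upper set gave 0.91 with an adjusted p of 0.0685.

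Fmo2, best known as the lung form, was close to the low-value limit in wild-type livers, at 2.47, 2.50 and 2.52 with saline and 2.34, 2.71 and 2.67 with APAP. In livers labelled liver-null it read 3.70, 3.84 and 2.98 with saline and 3.89, 4.77 and 3.02 with APAP. The arrays of the lower set gave the lowest liver-null values of both treatments (2.98 and 3.02), and these still exceeded all wild-type values. The difference was 1.17 (SE 0.25, interval 0.62 to 1.71, adjusted p = 0.0239, limma), 1.55 in the upper and 0.40 in the lower array set. A fold change that starts near the limit may be understated. The call was lost without wild-type saline 8 or 9, wild-type APAP 12, liver-null saline 4 or 5 or liver-null APAP 2, with adjusted p-values of 0.0544 to 0.0657 and differences of 1.08 to 1.17. Of its other probe sets, the first had group means of 2.36 and 2.11 in wild-type and 2.70 and 2.82 in liver-null livers (saline and APAP) and differed by 0.53, and the other was under the limit in all groups and differed by 0.01.

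Fmo5, which oxidises ketones to esters, read 11.38, 11.29 and 11.34 in wild-type saline, 11.12, 11.40 and 10.89 in wild-type APAP, 11.10, 11.22 and 11.28 in liver-null saline and 11.44, 11.75 and 11.29 in liver-null APAP livers. The genotypes overlapped, and the difference was 0.11. Fmo4 read 2.06 to 2.64 in wild-type and 2.32 to 2.99 in liver-null livers, so that part of its values lay under the limit. Only 2 wild-type arrays of Fmo4 exceeded the limit, against 4 liver-null ones, so it met the minimum of 3 arrays through the higher group. Its difference of 0.30 had an adjusted p of 0.292 in limma, and 0.0311 with the array set in the model.

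Adh4 was the only 1 of the 40 tested members called lower, against 2.18% of all tested genes. It is the class II alcohol dehydrogenase, a liver enzyme that acts on retinol and longer alcohols. Its values were 9.13, 9.37 and 9.15 in wild-type saline and 9.73, 9.57 and 9.35 in wild-type APAP livers, and 8.17, 8.29 and 9.19 in liver-null saline and 8.51, 8.65 and 8.80 in liver-null APAP livers. Liver-null saline 16, an array of the lower set, lay among the wild-type values, and the other 5 liver-null arrays lay below them. Adh4 fell by 0.78 (SE 0.16, interval -1.13 to -0.42, 1.72-fold lower, adjusted p = 0.0204, limma). The difference was -1.04 in the upper array set and -0.25 in the lower one. It missed the threshold without wild-type saline 9 (adjusted p = 0.0581), liver-null saline 5 (0.0556), liver-null APAP 2 (0.0586) or liver-null APAP 3 (0.0503).

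The remaining alcohol dehydrogenases were close to equal between genotypes. Adh1, the class I enzyme of ethanol oxidation, read 12.52, 12.48 and 12.53 in wild-type saline, 12.34, 12.50 and 12.49 in wild-type APAP, 12.42, 12.49 and 12.53 in liver-null saline and 12.49, 12.48 and 12.45 in liver-null APAP livers. The ranges of the genotypes overlapped, and the difference was 0.0012 (interval -0.14 to 0.15). Adh5, the glutathione-dependent formaldehyde dehydrogenase, read 11.64 to 11.73 and 11.58 to 11.73 (difference 0.02, interval -0.13 to 0.16). Adh7, known from the stomach, was low, at no more than 3.54 on any array.

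Among the aldo-keto reductases, 1 of 9 tested Akr1 genes rose, against 2.28% of all tested genes called higher. Akr1a1, the aldehyde reductase that also serves vitamin C synthesis in mice, read 12.11, 12.22 and 12.26 in wild-type saline, 12.20, 12.19 and 12.26 in wild-type APAP, 12.46, 12.59 and 12.43 in liver-null saline and 12.61, 12.54 and 12.47 in liver-null APAP livers. The genotypes did not overlap although the change was small, at 0.31 (SE 0.07, 1.24-fold, adjusted p = 0.0277, limma). Its other 3 probe sets were higher by 0.37, 0.39 and 0.43. The call was lost without wild-type saline 8 or 9, wild-type APAP 12 or 13, liver-null saline 5, or liver-null APAP 2 or 3, with adjusted p-values of 0.06 to 0.0781 and differences of 0.29 to 0.32.

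The Akr1c genes, a tandem group of steroid and prostaglandin reductases, gave no call in 7 tested genes and a median difference of 0.0027 in limma. At an unadjusted p under 0.05, 1 of the 7 passed, against 17% of all tested genes. It was Akr1c13 (0.24, adjusted p = 0.239), which was called with array weights, a setting that called 16.6% of all genes. The differences ran from -0.29 for Akr1c20 to 0.30 for Akr1c14. Akr1c6, the liver 17-beta-hydroxysteroid dehydrogenase, read 12.28, 12.55 and 12.52 in wild-type saline, 12.29, 12.47 and 12.48 in wild-type APAP, 12.13, 12.38 and 12.48 in liver-null saline and 12.31, 12.39 and 12.54 in liver-null APAP livers, with overlap. Akr7a5, which reduces succinic semialdehyde and aflatoxin dialdehyde, read 10.42, 10.49 and 10.33 in wild-type saline, 10.29, 10.26 and 10.26 in wild-type APAP, 10.55, 10.38 and 10.26 in liver-null saline and 10.63, 10.38 and 10.36 in liver-null APAP livers. The genotypes overlapped and differed by 0.09 (interval -0.09 to 0.26).

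None of the 13 tested aldehyde dehydrogenases passed in limma, while 6 had an unadjusted p under 0.05, 5 higher and 1 lower, against 17% of all tested genes, and the family median was 0.15. With the array set in the model, 1 passed (Aldh1a7), against 10.4% of all genes, and with array weights 4 did (Aldh1a7, Aldh3b1, Aldh6a1 and Aldh8a1), against 16.6%. Aldh1a7, a relative of the retinal-oxidising Aldh1a1, had all liver-null values (10.68 to 10.91) above all wild-type values (10.40 to 10.67). Its difference of 0.29 had an adjusted p of 0.0668. Aldh1a1 differed by 0.24 (adjusted p = 0.302) and overlapped.

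Aldh3a2, the fatty aldehyde dehydrogenase, read 7.54, 8.66 and 8.67 in wild-type saline and 7.57, 8.58 and 8.79 in wild-type APAP livers. In liver-null livers it read 8.73, 8.77 and 9.11 with saline and 8.71, 9.11 and 9.03 with APAP. Wild-type saline 8 and wild-type APAP 12 were far below the others, and the difference of 0.61 had an adjusted p of 0.213. Without the 4 arrays on which many members were lowest, the difference was 0.33. Aldh8a1, an enzyme of tryptophan breakdown, differed by -0.18 (adjusted p = 0.242). The mitochondrial Aldh2, which clears acetaldehyde, read 12.02, 12.11 and 12.15 in wild-type saline, 11.96, 12.12 and 12.18 in wild-type APAP, 12.19, 12.11 and 12.09 in liver-null saline and 12.17, 12.22 and 12.12 in liver-null APAP livers. The genotypes overlapped and differed by 0.06 (interval -0.10 to 0.22), and Aldh7a1, of lysine breakdown, by 0.09.

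The 7 members that did not reach the limit were Akr1b10, Akr1b8, Akr1cl, Aldh18a1, Aldh1a2, Aldh1a3 and Aldh3a1, and no value of theirs exceeded 2.35. Akr1b8 read 1.89 to 2.35 and Aldh3a1 1.34 to 1.84 over the 12 arrays, with no level above the limit in any group. Of the 40 tested members, 37 exceeded the limit on all 12 arrays, and the exceptions were Akr1c21, Fmo2 and Fmo4. Tested members that exceeded the limit in 1 genotype only numbered 0. Fmo4 exceeded it on 2 wild-type and 4 liver-null arrays, so its wild-type arrays alone would not have met the minimum of 3. Of the 34 tested members without a call, 25 had a 95% interval within 1.5-fold in either direction. Among all tested genes without a call, 6683 of 8091 did.

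**Figure D3:**
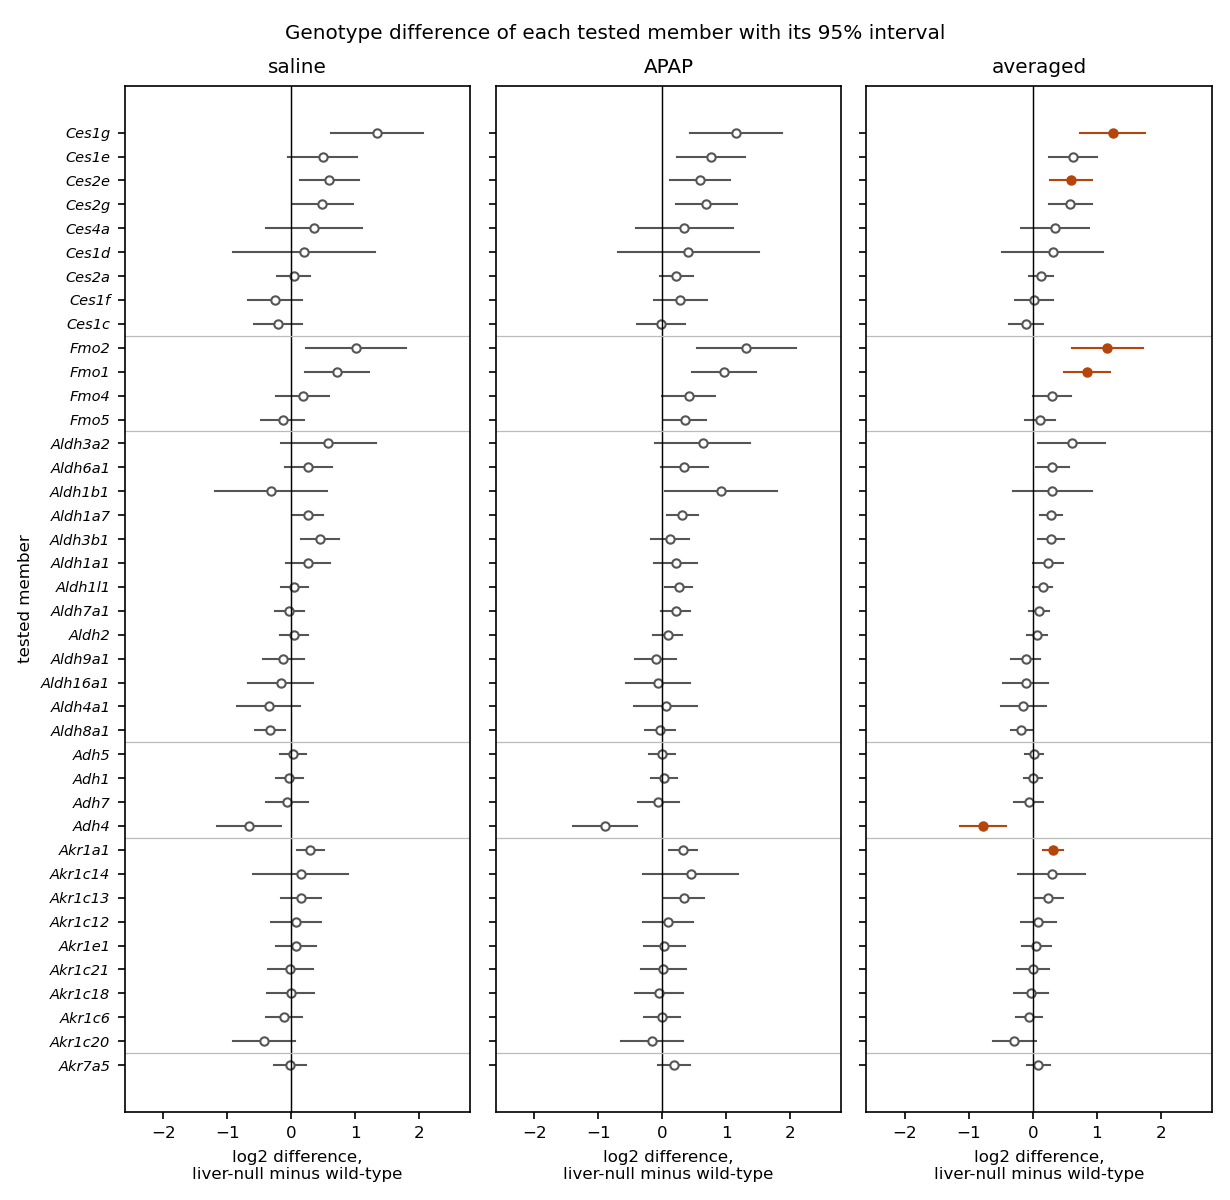
Difference in log2 value, liver-null minus wild-type (x axis), for each tested member (y axis) in saline livers, in APAP livers and averaged, with 95% intervals from limma. Filled red points passed the adjusted threshold, which occurs only in the averaged panel, for 6 members.

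Within a single treatment, 0 of the 40 members were called by limma. In saline livers 0.638% of all tested genes were called. At an unadjusted p under 0.05, 10 members passed (8 higher, 2 lower), against 12.2% of all genes, and 13 members (11 higher, 2 lower) had groups that did not overlap, against 15.2% (6.48% higher, 8.7% lower). In APAP livers 0.768% of all genes were called, 13 members passed unadjusted (12 higher, 1 lower) against 9.02%, and 13 (12 higher, 1 lower) did not overlap against 13.9% (6.97% higher, 6.91% lower). With the array set as a covariate 1 member (Ces1g) was called in each treatment, against 2.87% of genes in saline and 2.18% in APAP livers. Other settings gave 0 to 9 member calls in saline and 0 to 3 in APAP livers. The 9 and the 3 came with array weights, which called 1323 and 210 of all 8469 tested genes. The differences of the called members were alike in size: Ces1g differed by 1.34 in saline livers (adjusted p = 0.0976) and by 1.16 in APAP livers (adjusted p = 0.187). Fmo1 differed by 0.72 (adjusted p = 0.204) and 0.97 (adjusted p = 0.0924), and Adh4 by -0.67 (adjusted p = 0.234) and -0.89 (adjusted p = 0.129). In saline livers Ces1g was called without wild-type saline 10 (1.71, adjusted p = 0.0249) and Adh4 without liver-null saline 16 (-0.99, adjusted p = 0.026). In APAP livers Adh4 was called without liver-null saline 16 (adjusted p = 0.0131) and Fmo2 without liver-null APAP 17 (1.75, adjusted p = 0.0254).

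APAP at 100 mg/kg gave no call among the 40 members in either genotype, nor did the averaged effect or the difference between the genotypes' responses. limma called 0% of all tested genes in each of these comparisons. At an unadjusted p under 0.05, 1 member passed in wild-type livers (1.69% of all genes), 0 in liver-null livers (0.697%), 0 in the average (1.2%) and 2 for the difference in response (1.29%). No alternative setting gave a member call. Differences were above 0 in 32.5% of members in wild-type livers, against 45% of all genes, and in 82.5% in liver-null livers, against 55.9%. The averaged effect gave 55% against 49.2%, and the difference in response 77.5% against 56.8%. These shares were not tested. For the averaged effect, 35 of 40 members had an interval within 1.5-fold, against 7706 of the 8469 tested genes. In wild-type livers 4 members (Akr7a5, Aldh1l1, Aldh8a1 and Ces2a) had all APAP values below all saline values, against 2.79% of genes. In liver-null livers 1 member (Fmo5) had all APAP values above, against 3.18%.

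The member with the largest APAP difference was Aldh1b1, a mitochondrial acetaldehyde-oxidising enzyme. It read 8.28, 6.91 and 6.65 in wild-type saline, 5.86, 6.69 and 6.19 in wild-type APAP, 6.66, 7.21 and 7.01 in liver-null saline and 6.57, 7.60 and 7.33 in liver-null APAP livers. Wild-type saline 8 stood above the other 11 arrays, and all groups overlapped with at least 1 other. The APAP effect was -1.03 in wild-type livers (SE 0.40) and 0.20 in liver-null livers (SE 0.40). The difference in response of 1.24 (SE 0.56) had an adjusted p of 0.999 in limma. Without wild-type saline 8 the wild-type APAP effect was -0.54 and the difference in response 0.74. The liver-null effect was -0.014 without liver-null APAP 3, 0.05 without liver-null saline 4 and 0.50 without liver-null APAP 2. Fmo5 had a difference in response of 0.49 (SE 0.21, adjusted p = 0.999).

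Several called members lie beside relatives with other values, which are given here as a description with no test of the difference, since the clusters were chosen for holding a called member. In RefSeq order on chromosome 8, Ces1c, Ces1d, Ces1e, Ces1f and Ces1g are the tested genes of 8 in the Ces1 cluster. Their genotype differences were -0.11, 0.31, 0.63, 0.02 and 1.25. The intervals of Ces1f (-0.28 to 0.31) and Ces1g (0.74 to 1.76) did not overlap. In the Ces2 cluster, Ces2a, Ces2e and Ces2g differed by 0.13, 0.60 and 0.59, with overlapping intervals. Fmo4, Fmo1 and Fmo2 lie next to each other on chromosome 1 and differed by 0.30, 0.84 and 1.17. The interval of Fmo1 (0.49 to 1.20) overlapped both others, while those of Fmo4 (0.0012 to 0.59) and Fmo2 (0.62 to 1.71) did not overlap. On chromosome 3, Adh4 (-0.78) lies between Adh6b and Adh5 (0.02), and Adh7 (-0.06) and Adh1 (0.0012) belong to the same cluster. The interval of Adh4 (-1.13 to -0.42) overlapped none of those of Adh5 (-0.13 to 0.16), Adh1 (-0.14 to 0.15) and Adh7 (-0.29 to 0.16). Probe sets of closely related genes can bind each other's transcripts, and those of Fmo2, Fmo5 and Ces1f are of the type that Affymetrix marks as shared by several transcripts.

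**Figure D4:**
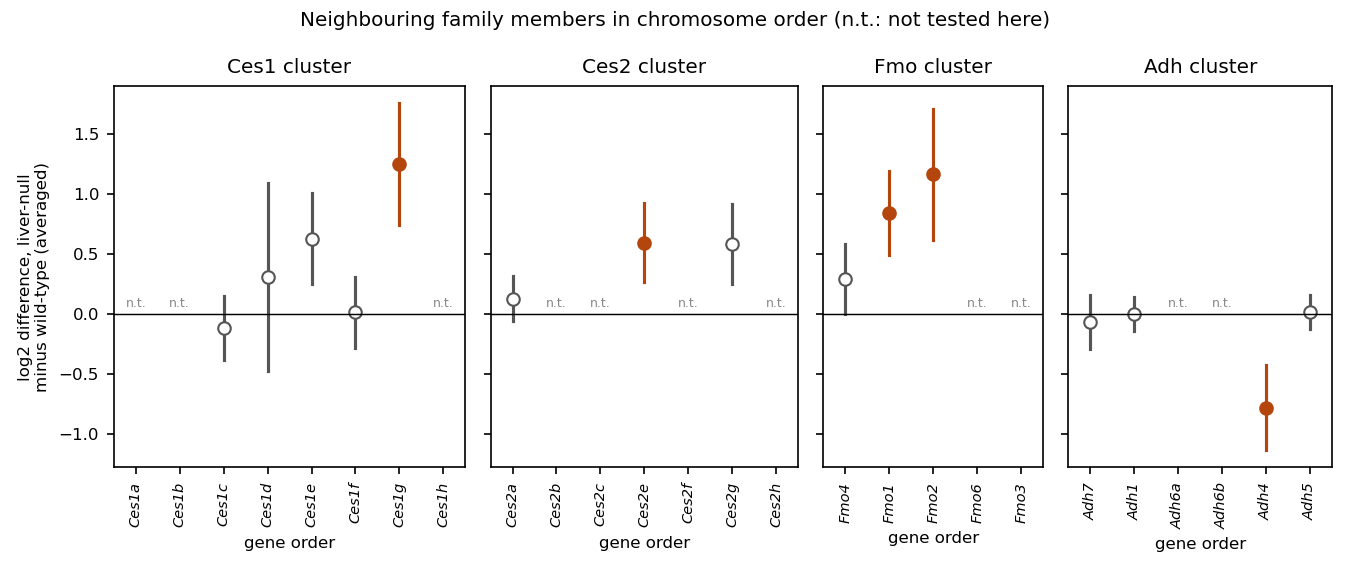
Genotype difference in log2 value averaged over treatments (y axis) for the genes of 4 clusters in chromosome order (x axis), with 95% intervals. Filled red points are called members, and n.t. marks genes not tested here. Ces1g at 1.25 stands beside Ces1f at 0.02, and Adh4 at -0.78 beside Adh5 at 0.02.

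Promoters of the called members Ces1g, Ces2e and Adh4 are shown as a description of their letters. RefSeq promoters of GRCm38.p6 (250 bases before and 50 after the start) matched 39 of the 47 members. The 250 bases before the start follow for Ces1g (chr8:93337210-93337459, minus strand), Ces2e (chr8:104926010-104926259, plus strand) and Adh4 (chr3:138415247-138415496, plus strand). Capitals mark AGGTCA, a hexamer of nuclear receptor sites, and CCAAT, the CCAAT box, on either strand, and Ces2e held neither.
Ces1g: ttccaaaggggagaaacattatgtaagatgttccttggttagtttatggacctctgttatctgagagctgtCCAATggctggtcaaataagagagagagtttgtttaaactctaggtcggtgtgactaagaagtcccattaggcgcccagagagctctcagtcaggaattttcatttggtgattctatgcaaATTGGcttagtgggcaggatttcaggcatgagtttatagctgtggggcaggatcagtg
Ces2e: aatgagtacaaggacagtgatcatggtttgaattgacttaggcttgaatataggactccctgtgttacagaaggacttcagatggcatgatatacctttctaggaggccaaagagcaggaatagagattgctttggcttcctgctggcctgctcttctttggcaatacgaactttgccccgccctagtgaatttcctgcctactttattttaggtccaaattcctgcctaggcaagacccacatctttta
Adh4: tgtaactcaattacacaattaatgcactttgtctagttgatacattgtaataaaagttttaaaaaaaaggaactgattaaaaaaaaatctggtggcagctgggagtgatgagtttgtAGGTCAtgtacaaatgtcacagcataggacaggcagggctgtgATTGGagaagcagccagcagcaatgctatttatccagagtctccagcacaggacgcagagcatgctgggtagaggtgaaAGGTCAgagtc

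The core of the antioxidant response element through which NRF2 acts, searched as TGACNNNGC on both strands, was in 12.4% of 32851 promoters and in the promoters of 14% of 27025 genes. It was in 3 of the 39 members with a promoter (Akr1cl, Aldh1a2 and Aldh9a1). It was in 0 of the 5 called members with a promoter, too few to compare with the share of all genes. Among the tested members only Aldh9a1, the trimethylaminobutyraldehyde dehydrogenase of carnitine synthesis, held it, shown in capitals in a window of chr1:167349888-167349928 (plus strand). Aldh9a1 read 10.87 to 11.36 in wild-type and 10.86 to 11.07 in liver-null livers and differed by -0.11.
Aldh9a1: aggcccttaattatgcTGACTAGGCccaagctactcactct

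GCGTG, the core bound by the aryl hydrocarbon receptor, was in 11 of 39 members, against 35.2% of genes. It was in 0 of the 5 called members with a promoter, again too few to compare with that share. AGGTCA was in 11 of 39 members against 18.1%, and CCAAT in 22 of 39 against 41.1%. Each was in 2 of the 5 called members, AGGTCA in Adh4 and Fmo2 and CCAAT in Adh4 and Ces1g. The last 2 motifs were added after the values were seen. A match is a description of the letters only, and sites outside this window were not searched.

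Pathway lists outside the 6 families are given for the averaged comparison, in which 4.46% of all tested genes were called, 17% had an unadjusted p under 0.05 and 10.4% were called with the array set in the model. Of the NRF2 targets, 20 of 27 tested genes rose and 0 fell, with a median of 0.96. The NAD(P)H quinone reductase Nqo1 rose by 3.26 (9.56-fold, adjusted p = 0.000223, limma). Of 34 tested companion enzymes of carbonyl, ketone and ester metabolism, 9 rose and 4 fell, with a median of 0.02. The carbonyl reductases Cbr3 (5.99, adjusted p = 0.00153) and Cbr1 (1.71, adjusted p = 0.00128) rose, and the retinal reductase Rdh11 (-0.96, adjusted p = 0.0179) and the aldehyde oxidase Aox3 (-0.42, adjusted p = 0.038) fell. Cbr3 is on both lists.

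Of targets of the receptors CAR and PXR, 1 of 13 rose (Cyp2c38, by 1.54), and of 20 PPAR-alpha targets 1 rose (Vnn1, by 1.24) and 1 fell (Cyp4a31, by -0.93). At an unadjusted p under 0.05, 5 CAR and PXR targets (3 higher, 2 lower) and 7 PPAR-alpha targets (4 higher, 3 lower) passed. With the array set 2 CAR and PXR targets were called higher and 1 lower, and 3 PPAR-alpha targets higher and 2 lower. Nqo1, which is also on the NRF2 list, was the only 1 of 3 aryl hydrocarbon receptor targets called. Of 12 male-biased liver genes 5 fell and 0 rose, with a median of -0.57, among them Hsd3b5 (-2.57, adjusted p = 0.0454) and C6 (-1.06, adjusted p = 0.00328). Of 9 female-biased genes 0 were called by limma, 4 had an unadjusted p under 0.05, and 4 were called with the array set in the model (3 higher, 1 lower). Of 9 genes of retinoid transport and turnover 0 were called, 2 had an unadjusted p under 0.05, and 0 were called with the array set.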

How the data were processed

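Expression was measured on Affymetrix arrays, 1 per mouse, in 4 groups of 3 mice, described as biological replicates in the series' design. The deposited values are on a log2 scale, and the authors made them with RMA, which corrects background, normalizes and summarises probes, per the submitters' processing notes. Its version and settings were not given in the sources used. The deposited table holds 22690 probe sets, of which 20380 have 1 gene symbol in the platform annotation, which can be old. All 47 members matched RefSeq (GRCm38.p6) by Entrez identifier. No further normalization was applied.

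Differences were fitted with limma 3.58.1 in R 4.3.3 to 4 group means over all 12 arrays (8 residual and 3.43 prior degrees of freedom, default eBayes), two-sided, with Benjamini-Hochberg adjustment over 8469 genes. The scripts were tested on simulated data. The averaged comparison is the mean of the saline and the APAP genotype differences. Any member may be named. Values on every array are given for called members and, per family, for the member with the largest difference and the one with the highest mean; other members whose groups stood apart were chosen after their values were seen. Up to 2 called genes per list and direction are named. The members, the lists and the comparisons were chosen with earlier results of these data known. Alternatives covered the filter, the choice of probe set, quantile normalization, the array set, array weights, a trended robust prior and leaving out arrays. For arrays, their number limits the precision.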

Additional observations from a re-analysis of the deposited data

How the results depend on the processing

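None of the member counts, and none of the genotype differences of the 6 called members, reversed in the alternatives run. For Aldh1a7, Aldh1b1, Aldh3a2, Ces1e, Ces2g and Fmo4 the averaged genotype difference did not reverse, and those within a treatment were not rerun. The genotype difference of Aldh1b1 was -0.32 in saline livers and 0.92 in APAP livers. The APAP difference of Aldh1b1 in liver-null livers (0.20) ranged from -0.014 without liver-null APAP 3 to 0.50 without liver-null APAP 2. The lists and motif counts were not rerun, apart from list counts with the array set. The member count of the averaged comparison (6) was 10 with the array set as a covariate, 13 with array weights, 1 without the 4 arrays on which many members were lowest, and 2 to 6 with single arrays left out: 2 without wild-type saline 9, liver-null saline 5 or liver-null APAP 2, and 3 without wild-type saline 8, wild-type APAP 12 or liver-null APAP 3. The other settings gave 5 to 8. In saline livers the count (0) was 1 with the array set, 9 with array weights, 1 with a trended robust prior, 1 without the lower array set and 0 to 1 with single arrays left out. In APAP livers the count (0) was 1 with the mean of all probe sets, 1 with the array set, 3 with array weights, 1 with the trended prior, 2 without the lower array set and 0 to 1 with single arrays left out. With array weights, 1323 of all 8469 tested genes were called in saline livers, 210 in APAP livers and 1409 averaged. Leaving out the lower array set, and leaving out the 4 low arrays, were chosen after seeing the data. Both leave fewer samples.

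Of 22 alternatives in the averaged comparison, Ces1g kept its call in 21 (1.07 to 1.43), Fmo1 in 21 (0.72 to 0.94), Adh4 in 17 (-1.04 to -0.62), Fmo2 in 15 (0.57 to 1.55), Akr1a1 in 14 (0.28 to 0.43) and Ces2e in 8 (0.42 to 0.73). Ces2e was also lost with no low-value filter, with the probe set of highest variance and with quantile normalization. Counts over all genes were 54 in saline livers (2 to 1323 over the alternatives), 65 in APAP livers (20 to 210) and 378 averaged (83 to 1409). The share of higher calls in saline livers was 57.4%, but 34.4% with array weights, 42.8% with the array set and 40.2% without wild-type saline 10, so that its majority turned. The cause was not tested.

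No paired analysis was possible because the groups share no replicate number. Members near the low-value limit (Akr1c21, Fmo2 and Fmo4) are measured least surely.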

Other observations

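Adhfe1, a mitochondrial hydroxyacid-oxoacid transhydrogenase outside the families by its symbol, was higher in livers labelled liver-null in the averaged comparison by 0.41 (SE 0.07, 1.33-fold, adjusted p = 0.00686, limma), and its other probe set by 0.43. Akr1d1, which was left out of the members, differed by 0.33 with an SE of 0.52 (adjusted p = 0.844). A probe set shared by Akr1c12 and Akr1c13 was higher by 0.24 (SE 0.09), and a probe set shared by Ces3a and Ces3b differed by -0.09 (SE 0.07).

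The 13 members that were lowest in every group on arrays 8 and 12 (wild-type saline and APAP) and 4 and 2 (liver-null saline and APAP) were Akr1c6, Akr1c14, Akr1c20, Aldh1a1, Aldh3a2, Aldh6a1, Ces1c, Ces1d, Ces1e, Ces1g, Ces2e, Ces2g and Fmo1. They include 6 of the 9 tested carboxylesterases and 3 of the 6 called members. These 4 arrays all belong to the upper array set.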
